A study of Mus musculus with 8 samples.

Results

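Small nucleolar RNAs and Cajal body RNAs were taken as every gene whose symbol starts with Snora, Snord or Scarna in the expression tables of mouse osteoblast progenitor cultures. The rule gave 149 of 51822 symbols, of which 99 were Snord, 41 were Snora and 9 were Scarna. The labels named the cells MC3T3-E1, a mouse calvarial osteoblast line, and the design text named calvarial cells. All 8 libraries came from cells kept in an osteogenic α-MEM medium with serum, ascorbic acid, dexamethasone and β-glycerophosphate, to which either the vehicle DMSO (control) or the aminoindazole LAMZ at 1 μmol/L was added. RNA was harvested at day 7 and day 14, with 2 libraries for each of the 4 groups. Whether replicate libraries came from separate cultures was not given in the sources used here, so the p-values measured only the spread between these libraries.

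Small nucleolar RNAs sit with core proteins in particles that modify other RNAs. C/D box RNAs, named Snord, mostly guide ribose methylation with the methyltransferase fibrillarin, and H/ACA box RNAs, named Snora, guide the change of uridine to pseudouridine with dyskerin. Cajal body RNAs, named Scarna, guide the same changes on spliceosomal RNAs. In mammals most of these RNAs are cut out of the introns of host genes, many of which encode ribosomal proteins, and a few have their own promoters.

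Values above 0 were found for 6 of the 149 members, and each of these had a value in all 8 libraries. They were the C/D box RNAs Snord104, Snord13 and Snord118, the H/ACA box RNA Snora17, and the Cajal body RNAs Scarna2 and Scarna17. The other 143 members were listed at 0 in every library.

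The sequences of 3 members with values and of 2 members listed at 0 are shown to make the box elements visible, all from GENCODE M21 transcripts on GRCm38. Snord104 lies at chr11:106500993-106501062 on the plus strand and Snord118 at chr11:69073427-69073561 on the plus strand. Snora17 lies at chr2:26639190-26639321 on the minus strand. Of the members listed at 0, Snord47 lies at chr1:161038082-161038158 on the plus strand within Gas5, and Snora43 at chr2:26637847-26637985 on the minus strand. Capitals mark the box C core TGATGA and the box D CTGA in the Snord sequences, and the ACA near the 3′ end in the Snora sequences.
Snord104: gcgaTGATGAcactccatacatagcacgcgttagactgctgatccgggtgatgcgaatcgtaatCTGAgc
Snord118: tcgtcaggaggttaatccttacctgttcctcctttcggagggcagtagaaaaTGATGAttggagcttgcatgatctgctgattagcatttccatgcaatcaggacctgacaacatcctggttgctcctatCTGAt
Snora17: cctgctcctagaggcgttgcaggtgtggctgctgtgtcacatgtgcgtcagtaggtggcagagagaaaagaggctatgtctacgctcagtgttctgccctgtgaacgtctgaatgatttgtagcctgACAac
Snord47: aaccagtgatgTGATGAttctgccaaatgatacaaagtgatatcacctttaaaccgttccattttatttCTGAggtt
Snora43: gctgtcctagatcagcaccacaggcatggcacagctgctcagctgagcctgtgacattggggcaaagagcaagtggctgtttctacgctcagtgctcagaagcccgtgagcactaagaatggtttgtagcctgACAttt

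The letters were searched on the transcript strand of the 145 members that could be matched to the annotation. TGATGA was present in 73 of 97 Snord members (75.3%), in 0 of 39 Snora members and in 5.02% of 6471 other transcripts of 60 to 250 bases. CTGA within the last 15 bases was present in 90 of 97 Snord members (92.8%), against 6.34% of the other transcripts. ACA within the last 6 bases was present in 36 of 39 Snora members (92.3%), against 7.50% of the other transcripts. CTGA and TGATGA can overlap by letters where a box reads CTGATGA. The 3 Snord members with values held both C/D elements, and so did Snord47, which was listed at 0.

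Whether a member had a value followed its position in the annotation. Of the 138 members that overlapped another annotated gene, 0 had a value, and 137 of them lay inside a gene on the same strand. Of the 7 that overlapped no other gene, 6 had a value, the exception being Snora43, which has 2 entries of its own symbol in the annotation. The remaining 4 members, listed as Snora16a_1, Snora16a_2, Snord80_1 and Snord80_2, could not be matched and were at 0. Other short RNA classes showed the same split. Among snoRNA and scaRNA genes with other symbols, 1 of 743 overlapping genes (0.135%) and 44 of 608 non-overlapping genes (7.24%) were above 0, and among spliceosomal snRNA genes 4 of 617 (0.648%) and 123 of 765 (16.1%). How the authors' counting assigned reads in overlapping genes was not given in the sources used here, so a member listed at 0 was not read as an absent RNA. RefSeq annotation differed for some of these 7 members, placing Snora17 and Snora43, which was at 0, inside Snhg7, Snord104 inside Gm36220 and Scarna17 inside Gm41774.

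Host genes of members listed at 0 were often abundant. Of the 137 members inside a same-strand host, 48 lay in hosts with a mean of at least 100 RPKM, a unit that divides reads by gene length and library depth. There were 33 members in ribosomal protein genes and 48 in non-coding hosts. The 17 members of the imprinted Snord116 cluster, known for its expression in brain, lay within Snhg14, which ranged from 0 to 0.0975 RPKM. No symbol of the Snord115, Snord113 or Snord114 clusters was in the tables (0 each).

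In every library Snord104, a C/D box guide of ribosomal RNA methylation, had the highest level of all members per length. Its RPKM was 2815.0 and 944.5 in the day 7 controls, 3014.5 and 2388.3 in the day 7 LAMZ cultures, 1702.6 and 1715.9 in the day 14 controls, and 1966.9 and 2554.5 in the day 14 LAMZ cultures. The groups overlapped at day 7, and both LAMZ values lay above both control values at day 14. In such bulk samples fewer cells of a type and less RNA per cell cannot be told apart.

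Snord13, which takes part in the acetylation of small-subunit ribosomal RNA, had the next highest mean level. Its RPKM was 803.3 and 358.1 in the day 7 controls and 958.1 and 965.2 with LAMZ, then 503.2 and 338.2 in the day 14 controls and 657.8 and 841.0 with LAMZ. On both days each LAMZ library lay above each control library of that day.

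Snord118, needed for the processing of large-subunit ribosomal RNA, had RPKM values of 188.6 and 74.9 in the day 7 controls, 300.5 and 140.8 in the day 7 LAMZ cultures, 46.9 and 36.0 in the day 14 controls, and 81.3 and 74.3 in the day 14 LAMZ cultures. Its range was the widest of the 6 members, 8.34-fold from the lowest to the highest library. The groups given LAMZ or vehicle overlapped at day 7 and were apart at day 14.

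Snora17, an H/ACA box RNA, had RPKM values of 476.2 and 404.6 in the day 7 controls, 646.6 and 562.7 in the day 7 LAMZ cultures, 155.2 and 269.8 in the day 14 controls, and 298.8 and 315.0 in the day 14 LAMZ cultures. All 4 libraries of day 14 lay below all 4 libraries of day 7, and on each day both LAMZ libraries lay above both controls.

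Neither Cajal body RNA passed a test between groups. Scarna2 had RPKM values of 189.6 and 85.1 in the day 7 controls, 121.2 and 128.4 with LAMZ, 134.0 and 111.1 in the day 14 controls, and 158.2 and 138.5 with LAMZ. Scarna17 had 292.1 and 95.02, 231.5 and 187.1, 124.9 and 170.8, and 141.1 and 173.7 RPKM in the same order. At day 7 the LAMZ values of both lay between the control values. By mean level over all libraries the neighbours Scarna17 (177.0 RPKM), Scarna2 (133.3 RPKM) and Snord118 (117.9 RPKM) had overlapping ranges.

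**Figure D1:**
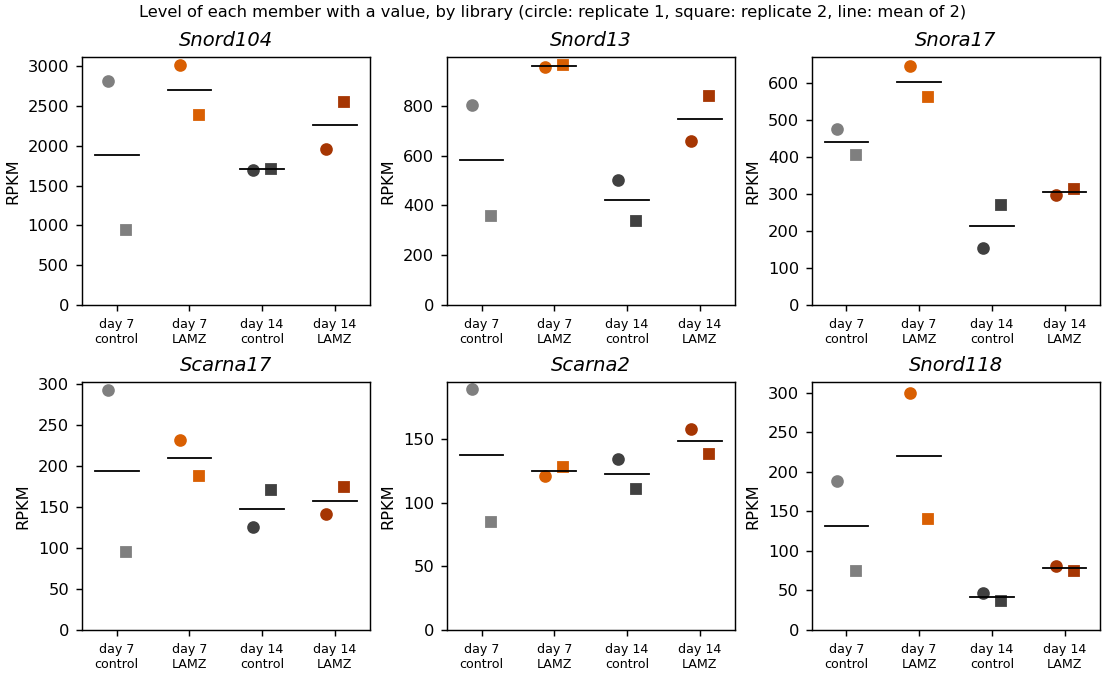
RPKM of the 6 members with values in each library, 1 panel per RNA on a linear axis from 0, with circles for replicate 1, squares for replicate 2 and lines for the mean of 2. Snora17 at day 14 lies below its day 7 values, and the 2 day 7 control libraries lie far apart for all members but Snora17.

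For 5 of the 6 members the 2 day 7 control libraries differed more than those of any other group. Replicate 1 exceeded replicate 2 by 3.07-fold for Scarna17, 2.98-fold for Snord104, 2.52-fold for Snord118, 2.24-fold for Snord13 and 2.23-fold for Scarna2, but by 1.18-fold for Snora17. Among other short RNAs of these libraries the same ratio was 1.81 for Rn7s6, 1.70 for Rny3, 1.13 for Rpph1, 1.03 for Rny1, 1.02 for Rn7sk, 0.820 for Rn7s1 and 0.729 for Rmrp. The day 7 controls also lay apart for the spliceosomal RNA Rnu1b1 (225.0 and 112.0 RPKM) and the host gene Gas5 (178.5 and 72.8 RPKM). Gm23787, a snoRNA or scaRNA gene outside the rule, had 90.8 and 15.8 RPKM. The host gene Snhg3 lay the other way (47.1 and 122.7 RPKM). A gap between these libraries was thus also seen in single genes outside the members. The ratios given above from Rn7s6 to Rmrp all lay below the 2.23 of Scarna2. The share of all genes with such a gap is not given here, so whether it was particular to the members was not tested.

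Whole reads were recovered from the steps of the RPKM values, giving 3463505 to 5832483 mapped reads per library. Behind each value stood 229 to 900 reads for Snord104, 129 to 523 for Snord13, 110 to 387 for Snora17, 122 to 382 for Scarna2, 26 to 87 for Scarna17 and 22 to 173 for Snord118. All 6 osteoblast markers checked were above 0 in every library, with a summed RPKM of 4491.8 to 11228.7. Endothelial, muscle and neuronal markers summed to at most 1.10, 0.494 and 0.152 RPKM.

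Markers of macrophages moved with LAMZ. The summed RPKM of 6 markers was 393.6 to 498.8 in the day 7 controls and 904.9 to 982.6 in the day 14 controls, against 6.70 to 8.60 and 5.80 to 6.43 with LAMZ, and all 6 lay lower in every LAMZ library than in every control. C1qa and C1qb were at 0 in all LAMZ libraries. On average over both days 5 of the 6 osteoblast markers were called higher with LAMZ in limma, against 9.12% of all genes. For Bglap the day 14 groups overlapped (350.8 and 364.0 RPKM in controls, 247.8 and 425.6 with LAMZ). The part of the macrophage or osteoblast marker changes in the levels of Snord13, Snora17 and the other members was not tested.

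The summed RPKM of all members was 4764.8 and 1962.3 in the day 7 controls and 5272.4 and 4372.6 with LAMZ, and 2666.9 and 2641.8 in the day 14 controls and 3304.1 and 4097.0 with LAMZ. The group means were 3363.5 ± 1981.7 (SD, n = 2) and 4822.5 ± 636.3 at day 7, and 2654.3 ± 17.7 and 3700.6 ± 560.7 at day 14. Snord104 made up 48.1 to 65.0% of the sum. The ratio of LAMZ to control was 1.43 at day 7 and 1.39 at day 14. At day 7 it was 2.46 without control replicate 1 and 1.01 without control replicate 2, so the difference in the sum was not separable from the spread of the controls. At day 14 the groups were apart, but quantile normalization brought the ratio to 1.00 and rescaling to the same sum to 1.08. Rescaling to the same median brought it to 1.64. The settings have limits here. Quantile normalization sets each value by its rank in the library. The sum used for rescaling includes the short RNA Rn7s1 (51876.9 to 144107.4 RPKM), which was itself higher with LAMZ. Reads of Rn7s1 also count towards the library depth that RPKM divides by. Whether the ratio reflects scaling was not tested.

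**Figure D2:**
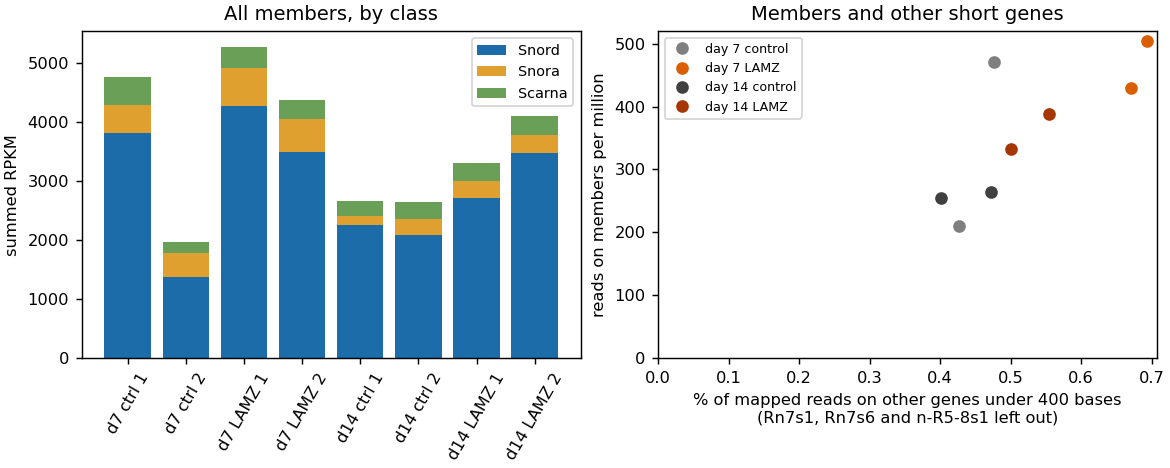
Left, summed RPKM of all members in each library from 0, stacked by class; right, reads on members scaled to the mapped reads of the library against the percentage of mapped reads on other genes under 400 bases, 1 point per library. Snord members form most of each bar, and LAMZ libraries lie to the right of the control libraries.

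LAMZ was compared with control at each day to ask whether the compound changed these RNAs. At day 7, 0 of the 6 members passed an adjusted p of 0.05 in limma with Benjamini-Hochberg adjustment over 12514 genes, against 12.8% of all genes tested, and 1 had an unadjusted p under 0.05. At day 14, 0 passed against 23.0% of all genes, and 2 had an unadjusted p under 0.05. The median log2 fold change of the 6 members, on log2(RPKM + 1), was 0.59 at day 7 and 0.49 at day 14, beside −0.08 and −0.15 over all genes tested. Rescaling to the same sum moved those all-gene medians to −0.31 and −0.43, and centring on the median moved them to 0.03 and 0.04.

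Averaged over both days, 1 of the 6 members was called, against 29.5% of all genes in either direction and 9.12% called higher, and 3 had an unadjusted p under 0.05. Snord13 rose with LAMZ by a log2 fold change of 0.84 (SE 0.25, adjusted p = 0.0380 from limma). It was 0.84 at day 7 (SE 0.36, adjusted p = 0.169 from limma) and 0.85 at day 14 (adjusted p = 0.125 from limma). The day 7 value was 1.42 without control replicate 1 of that day (adjusted p = 0.0214 from limma) and 0.26 without control replicate 2 (adjusted p = 0.565 from limma). The direction held in 20 of 20 alternative settings, with log2 fold changes of 0.51 to 1.14, and the call in 11 of them (adjusted p from 0.00328 to 0.129 in limma). The call was lost without day 7 LAMZ replicate 1 or 2 (adjusted p = 0.0997 and 0.0966), without day 14 control replicate 2 (0.124) and without day 14 LAMZ replicate 1 or 2 (0.0662 and 0.118), all from limma. It was also lost after quantile normalization (0.103), after rescaling to the same sum (0.0890), without a filter (0.129) and with a filter on recovered reads (0.0532).

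The other C/D box members had averaged log2 fold changes of 0.84 for Snord118 (SE 0.32, adjusted p = 0.0843 from limma) and 0.55 for Snord104 (SE 0.31, adjusted p = 0.214 from limma). Quantile normalization turned the Snord104 value to −0.09. Snora17 had a value of 0.52 (SE 0.17, adjusted p = 0.0523 from limma). Scarna17 had 0.21 and Scarna2 had 0.12 (adjusted p = 0.661 and 0.715 from limma), and both became negative after rescaling to the same sum and after quantile normalization. Without day 7 control replicate 1, the averaged values were 0.95 for Snord104, 1.17 for Snord118, 0.61 for Scarna17 and 0.41 for Scarna2. Without day 7 control replicate 2 they were 0.16, 0.51, −0.19 and −0.16.

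Day 14 was compared with day 7 to follow the RNAs through differentiation. In control cultures 1 of 6 members was called, against 4.86% of all genes in either direction and 2.40% called lower. It was Snora17, which fell by 1.10 on the log2 scale (SE 0.24, adjusted p = 0.0457 from limma). In LAMZ cultures 1 of 6 was called, against 14.4% of all genes and 9.26% called lower, and it was again Snora17, which fell by 0.97 (SE 0.24, adjusted p = 0.0333 from limma). Both directions held in 19 of 19 alternatives and the calls in 5 and 12 of them. Leaving out 1 library gave adjusted p-values of 0.0316 to 0.162 in controls, where only the omission of day 14 control replicate 2 kept the call, and the call in LAMZ cultures was lost when any 1 of the 4 LAMZ libraries was left out (0.115 to 0.160), all from limma. Snord118 had a log2 fold change of −1.51 in controls (adjusted p = 0.102 from limma) and one of −1.39 in LAMZ cultures (adjusted p = 0.0777 from limma). The control value of Snord118 was −0.85 without day 7 control replicate 1 and −2.17 without replicate 2 (adjusted p = 0.319 and 0.0415 from limma). Neither of these libraries enters the log2 fold change of Snord118 in LAMZ cultures, which stayed at −1.39 without either. They do enter its p-value, through the estimate of the spread that all 4 groups share. Over 19 alternatives the log2 fold change in LAMZ cultures ran from −1.94 to −0.85, and it was called in 4 of them. The 2 day 7 LAMZ libraries differed by 2.13-fold for Snord118. The other 4 members lay between −0.41 and 0.25 in both control and LAMZ cultures.

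**Figure D3:**
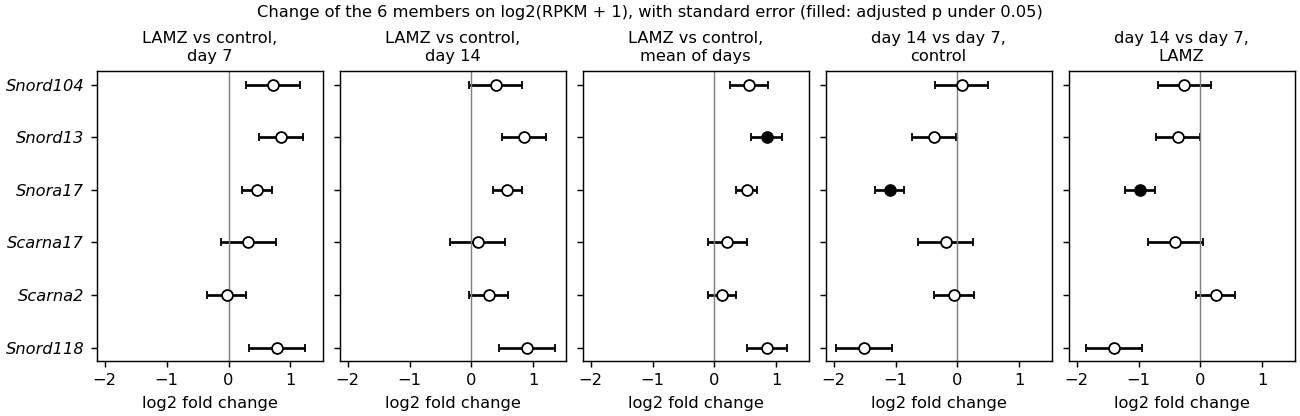
Log2 fold change of the 6 members on log2(RPKM + 1) in 5 comparisons, with bars for the standard error and filled points for an adjusted p under 0.05 in limma. Snord13 is filled in the LAMZ comparison averaged over days, and Snora17 in both comparisons of day 14 with day 7.

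The change with LAMZ did not differ detectably between the days for any member. In the test of that difference 0 of 6 members were called by limma, against 0.623% of all genes, 0 had an unadjusted p under 0.05, and the log2 differences lay between −0.33 and 0.30.

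Snora17 lies inside Snhg7 in RefSeq, a non-coding gene that the tables list separately. The RPKM of Snhg7 was 57.2 and 35.3 in the day 7 controls, 111.3 and 88.4 in the day 7 LAMZ cultures, 10.7 and 14.3 in the day 14 controls, and 20.97 and 29.5 in the day 14 LAMZ cultures. In limma its log2 fold change with LAMZ was 1.12 at day 7 and 0.95 at day 14 (adjusted p = 0.0301 and 0.0357), and from day 7 to day 14 it was −1.78 in controls and −1.95 in LAMZ cultures (adjusted p = 0.0137 and 0.00382). Snhg7 thus lay higher with LAMZ and lower at day 14, as the values of Snora17 did. How reads were divided between the pair was not tested.

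Of 93 hosts with entries, 86 were tested, and their changes say nothing of the level of the members inside them. On average over both days 39 were higher and 3 lower with LAMZ (48.8%, against 29.5% of all genes), with a median log2 fold change of 0.47. Without day 14 LAMZ replicate 1, 26 hosts were called in all. Among ribosomal protein hosts 22 of 24 were higher, among other protein-coding hosts 9 of 44 were higher and 3 lower, and among non-coding hosts 8 of 18 were higher. Of all genes, 9.12% were called higher on average. In a separate list of 15 tested non-coding snoRNA hosts, 7 were called higher and 3 lower on average, beside the same 9.12% of all genes called higher. That list includes Meg3, Rian and Mirg, which held no member and lay lower with LAMZ on each day. Meg3 had 30.1 RPKM in both day 7 controls and 11.3 and 10.2 RPKM with LAMZ. Examples chosen after their values were seen are Eef2, a translation elongation factor (0.62), Snhg1 (1.02), Snhg12 (0.69) and Rpl13a (0.49), with adjusted p = 0.00101, 0.00041, 0.0376 and 0.0443 from limma. Gas5, the host of Snord47, had 0.66 (adjusted p = 0.0936 from limma).

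There were 44 tested genes for proteins that form, assemble, traffic or trim these particles. At day 7, 1 was called higher with LAMZ (2.27%, against 12.8% of all genes). At day 14, 7 were higher and 1 lower (18.2%, against 23.0% of all genes). On average 8 were higher and 1 lower (20.5%, against 29.5% of all genes). The C/D box core protein genes Nop58 and Fbl, which encodes fibrillarin, were higher on average, with 0.48 on the log2 scale for the former (adjusted p = 0.0163 from limma) and 0.42 for the latter (adjusted p = 0.0371 from limma). Nop56 had 0.55 (adjusted p = 0.0663 from limma) and Snu13 −0.13. Of the H/ACA box core genes, Nhp2 rose by 0.67, Gar1 by 0.54 and Nop10 by 0.35 (adjusted p = 0.00267, 0.00467 and 0.0125 from limma). Dkc1, which encodes dyskerin, had 0.49 (adjusted p = 0.0525 from limma). Of 15 exosome and end-processing genes, 0 were called with LAMZ in limma at day 7, day 14 or on average. The shares of all genes were 12.8, 23.0 and 29.5% in the same order. An unadjusted p under 0.05 in limma was found for 0, 2 and 2 of the 15.

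Insert length of the libraries was not given in the sources used here, so its part in these values was not tested. Values that depend on gene length are given in its place. Other single-exon genes under 400 bases took 4.14% of mapped reads in both day 7 controls and 5.86 to 5.93% in the day 7 LAMZ libraries, and 2.38 to 2.89% and 4.20 to 4.46% at day 14. Without Rn7s1, Rn7s6 and n-R5-8s1 the shares were 0.426 to 0.477% and 0.670 to 0.693% at day 7, and 0.401 to 0.472% and 0.500 to 0.555% at day 14. The LAMZ libraries thus held more short-gene reads on each day.

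Among 14 tested RNAs of a list of other short non-coding RNAs, 7 were called higher on average, against 9.12% of all genes, and 0 lower in limma, with a median log2 fold change of 0.53. Rny1, a Y RNA, rose by 1.46, Rnu1b1, a spliceosomal RNA, by 1.21, Rn7s1, of the signal recognition particle, by 0.66, Rny3 by 0.65 and Rpph1, the RNA of RNase P, by 0.36 (adjusted p = 8e-05, 0.0232, 0.0114, 0.0233 and 0.0392 from limma). For Rny3 the values by day were 1.43 at day 7 (adjusted p = 0.00799 from limma) and −0.13 at day 14 (adjusted p = 0.721 from limma), where both LAMZ libraries lay below both controls. Rn7sk had 0.06 (adjusted p = 0.710 from limma). The median of tested genes was 0.16 under 150 bases and 0.19 from 150 to 400 bases, against −0.13 from 4000 bases. A loess correction of each library for gene length brought the averaged Snord13 log2 fold change to 0.58 with the call kept (adjusted p = 0.0305 from limma), and left the Snora17 log2 fold changes between days at −1.05 in controls and −0.90 in LAMZ cultures, neither called (adjusted p = 0.0893 and 0.0964 from limma).

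**Figure D4:**
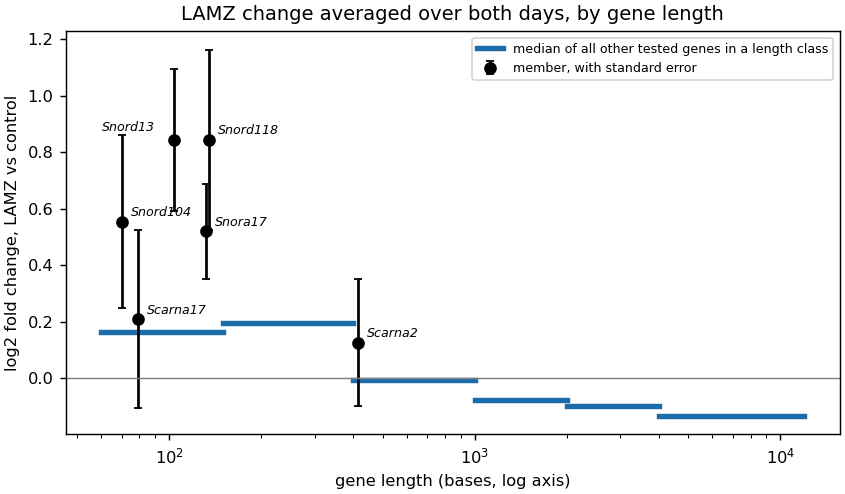
Log2 fold change with LAMZ averaged over both days against gene length on a log axis, with points and standard error bars for the 6 members and lines for the median of the tested genes in each length class. The medians of the 2 classes under 400 bases lie above 0 and those of longer genes below it. The values of Scarna17, Scarna2 and Snord104 turn negative after quantile normalization, which is not drawn here.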

How the data were processed

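Total RNA of 8 libraries (2 per group) was sequenced by the study on an Ion Proton system, and reads were mapped and summarised in CLC Genomics Workbench. The build was mm10 per the submitters' processing notes. Version, settings, strand handling and insert length are not given in the sources used here. The deposited values are RPKM per gene, made by the authors from mapped reads. Repeated symbols (4 in each library) were dropped.

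Members and lists were chosen with earlier results of these data known. Genes reaching 1 RPKM in 2 or more libraries (12514) were fitted as log2(RPKM + 1) in limma 3.58.1 (R 4.3.3) with a mean-variance trend, all 4 groups in one model, and p-values were adjusted by Benjamini-Hochberg over all of them with a threshold of 0.05. Fold changes on this scale understate changes of low genes. The script was tested on simulated data.

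Mapped reads per library were recovered from the RPKM steps and gene lengths, and 95.6 to 97.7% of low values (at most 10 reads) were whole within 0.05. Read numbers bear on counting error only, since reads without molecular identifiers are not independent molecules. Replicate libraries were checked for identity and differed by more than sampling noise (chi-square per gene 3.68 to 5.95).

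Named members were those with the highest mean RPKM or most reads and those called in a comparison, with their hosts, the C/D and H/ACA core protein genes and up to 6 other short RNAs. Positions and sequences came from GENCODE M21 (GRCm38) and RefSeq (GRCm38.p6 annotation). The sequence of Snord13 is not reported here. Python 3.11.15 with pandas 2.3.3 was used for sums and counts. Alternatives covered pseudocounts, filters, scaling, gene length, recovered reads, replicate blocks and the omission of each library.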

Additional observations from a re-analysis of the deposited data

How the results depend on the processing

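Same-numbered libraries did not deviate together (correlation −0.0166 at day 7 and 0.0158 at day 14), so a number was not taken as a pair. A replicate block across all groups gave 2 members called on average and 2 in LAMZ cultures over time, and a replicate block within each day gave 1 at day 7, 1 at day 14 and 3 on average. A block within each day leaves no comparison between days.

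Members called on average numbered 2 after centring on the median, 3 on recovered reads scaled to depth, and 0 with a filter of 3 recovered reads, without a filter, after rescaling to the same sum and after quantile normalization. At day 14, 1 was called after centring, on recovered reads and with the 4 libraries of the day alone. Over time in LAMZ cultures 2 were called on recovered reads and 0 after rescaling, after the length correction and without a filter. In controls 2 were called on recovered reads and 0 with the read filter, without a filter, without a trend, after rescaling, after the length correction and with a pseudocount of 0.1. Omission of 1 library gave 0 to 3 members called at day 7, 0 to 1 at day 14, 0 to 5 on average, 0 to 1 in controls over time and 0 to 2 in LAMZ cultures over time. Host genes called on average numbered 23 without a filter and 26 to 48 with 1 library omitted. Protein genes called numbered 14 after centring, 17 after rescaling, 15 after the length correction and 15 after quantile normalization. The ratio of sums at day 14 was 1.64 after rescaling to the same median, 1.08 after rescaling to the same sum and 1.00 after quantile normalization, and at day 7 it ran from 1.01 to 2.46 with 1 library omitted. The share of all genes called in each setting is not given here. Counts of calls under these alternatives were therefore not read as particular to members, hosts or protein genes. The causes were not tested.

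Directions turned for values that had passed no test. For Scarna17, rescaling gave −0.26 at day 14, −0.12 on average and 0.0671 over time in controls, the length correction gave −0.0136 at day 7, −0.19 at day 14 and −0.10 on average, and quantile normalization gave −0.16 at day 14 and −0.0252 on average. For Scarna2, rescaling gave −0.0851 at day 14, −0.21 on average and 0.20 over time in controls, quantile normalization −0.11 on average and 0.10 over time in controls, and centring 0.0866 at day 7. Quantile normalization gave −0.20 at day 14 and −0.0938 on average for Snord104, rescaling gave −0.0494 for the Snord13 difference between days, and centring gave 0.0213 for the averaged value of Snu13.

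With 1 library omitted, Scarna17 ran from −0.49 to 1.12 at day 7, −0.12 to 0.32 at day 14, −0.19 to 0.61 on average, −0.99 to 0.62 over time in controls and −1.02 to 0.59 for the difference between days. Scarna2 ran from −0.60 to 0.55 at day 7, −0.16 to 0.41 on average, −0.63 to 0.52 over time in controls and −0.27 to 0.88 for the difference. Snord104 ran from −0.0692 to 1.51 at day 7, −0.72 to 0.86 over time in controls and −1.11 to 0.46 for the difference. Snord13 ran from −0.96 to 0.20 over time in controls and −0.57 to 0.59 for the difference, which ran from −0.27 to 0.52 for Snora17 and −0.54 to 0.78 for Snord118. Scarna17 and Snord118 had as few as 26 and 22 reads in a library. Groups of 2 share 1 estimate of the spread, and a lone library was assumed to vary like the others.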

Other observations

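Of 1351 snoRNA or scaRNA genes with symbols outside the rule, 45 were above 0 in some library and 13 were tested. At day 7, 2 of these 13 were called higher and 0 lower with LAMZ in limma, against 12.8% of all genes called in either direction, and at day 14, 1 was called higher and 0 lower, against 23.0%. From day 7 to day 14, 2 were called lower in controls, against 4.86% of all genes, and 2 in LAMZ cultures, against 14.4%, and 0 higher. The one with the highest mean, chosen after its values were seen, was Gm23119, a scaRNA gene whose RPKM was 75.8 and 57.7 in the day 7 controls, 48.6 and 52.1 in the day 7 LAMZ cultures, 21.3 and 28.4 in the day 14 controls, and 55.1 and 54.1 in the day 14 LAMZ cultures. Its log2 fold change with LAMZ was −0.39 at day 7 and 1.12 at day 14 (adjusted p = 0.191 and 0.00326 from limma), and the test of the difference between days gave 1.51 (SE 0.25, adjusted p = 0.0487 from limma). It lies 92 bases from Scarna17, whose own difference was −0.22 (SE 0.63, adjusted p = 0.898 from limma), and the 2 genes were not compared by a test.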
